A study of Mus musculus with 15 samples.

Results

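The effect of 1 month of dietary restriction (DR) on epididymal fat was examined by setting the RNA-Seq library of mice fed DR against that of mice fed ad libitum (AL). These were 2 of 15 libraries, which covered 5 tissues and 3 diets. Male C57BL/6 mice were 5 months of age in both groups, and DR mice had received 60% of the AL intake since 4 months of age. RNA of 5 mice was pooled for each library, so there was 1 library for each diet and no replicate. Another fat library, DR-AL, came from mice returned to AL feeding for 2 months after DR and killed at 7 months of age, so diet and age cannot be told apart in it. It is given only to place the AL and DR values. Of 33603 loci in the table, 23589 carried a gene name, and 16501 of these reached a mean of 10 scaled counts over the AL and DR fat libraries and were compared.

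White adipocytes store fatty acids as triglyceride and release them when food is short. They can also make fatty acids from glucose, a process called de novo lipogenesis, in which citrate leaves the mitochondrion, is split to acetyl-CoA and is extended to palmitate by Fasn, fatty acid synthase. The glycerol backbone of triglyceride comes from glucose or, when glucose is short, from a pathway that needs Pck1, phosphoenolpyruvate carboxykinase.

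Named loci took 26217345 counts in AL fat, 22829358 in DR fat and 27357403 in DR-AL fat. Ratios below are of counts divided by size factors, as log2 of DR over AL with a pseudocount of 0.5, and a gene is called higher or lower where the ratio is at least 2-fold. Intervals are exact 95% intervals that cover counting error only, and no p-value is given because variation between mice was not measured. In whole tissue, fewer cells of a type and less RNA in each cell cannot be told apart.

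The fat libraries differed in how much RNA of neighbouring or foreign tissue they held. Summed over 20 hepatocyte markers, of which 1 was listed at 0 in every library, the level was 11700 CPM (counts per 1000000 on named loci) for AL fat, 121 for DR fat and 32.5 for DR-AL fat, against 87700 for AL liver. The AL fat library held a median of 12.4% of the AL liver level over 19 of these genes, with a range of 7.98% to 29.8%, and the DR library held 0.134%. Testis germ cell markers ran the other way, with 62.9 CPM in AL against 1050 in DR, with 4840 in DR-AL over 20 genes. Epididymis markers summed to 928 CPM in AL against 3590 in DR, with 5490 in DR-AL over 18 genes. Skeletal muscle markers summed to 116 CPM in AL against 594 in DR, with 128 in DR-AL over 9 genes. Fat itself was plainly present: all 24 adipocyte markers passed the filter, and their sum was 94400 CPM in AL and 82200 in DR. How these transcripts came into the libraries was not tested.

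**Figure D1:**
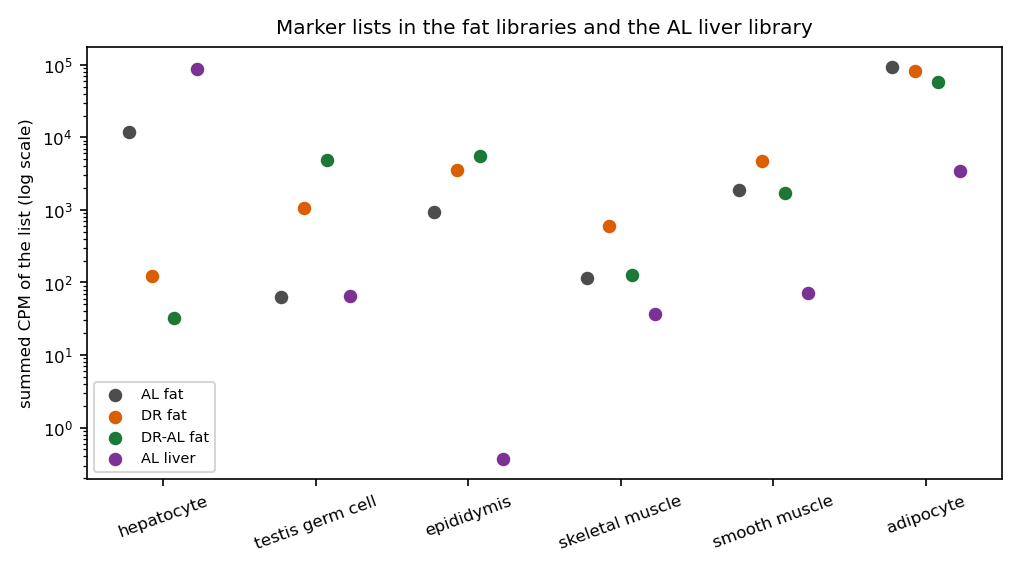
Summed CPM of 6 marker lists (log axis) in the AL, DR and DR-AL fat libraries and the AL liver library, 1 point a library. Hepatocyte markers stood at 11700 in AL fat and 121 in DR fat, and germ cell markers at 62.9 and 1050, while adipocyte markers differed little, at 94400 and 82200.

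Over all compared genes, 2658 were higher in DR (16.1%) and 1042 were lower (6.31%). These shares are the background for the counts of each fat gene list below. Of the higher genes, 1258 had under 10 scaled counts in AL and so passed the filter only through their DR counts. Higher genes made up 71.8% of the calls, but 43.9% with FPKM values and 82.2% when the liver share was taken off the AL counts. To report fat genes apart from liver transcripts, a gene was called liver-high where its liver level was at least 10 CPM and at least 10-fold that of both DR-AL fat and colon. Of 377 compared liver-high genes, 352 were lower in DR. Outside that set, 2651 of 16124 genes were higher (16.4%) and 690 were lower (4.28%). A second class held 1444 genes with under 1 CPM in each of the 12 libraries of other tissues, and 977 of these were higher in DR. They made up 36.8% of the higher genes and 8.75% of the genes compared. With these 1444 genes and a wider liver set of 482 genes set aside, 14575 genes remained, of which 1674 were higher and 530 were lower.

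**Figure D2:**
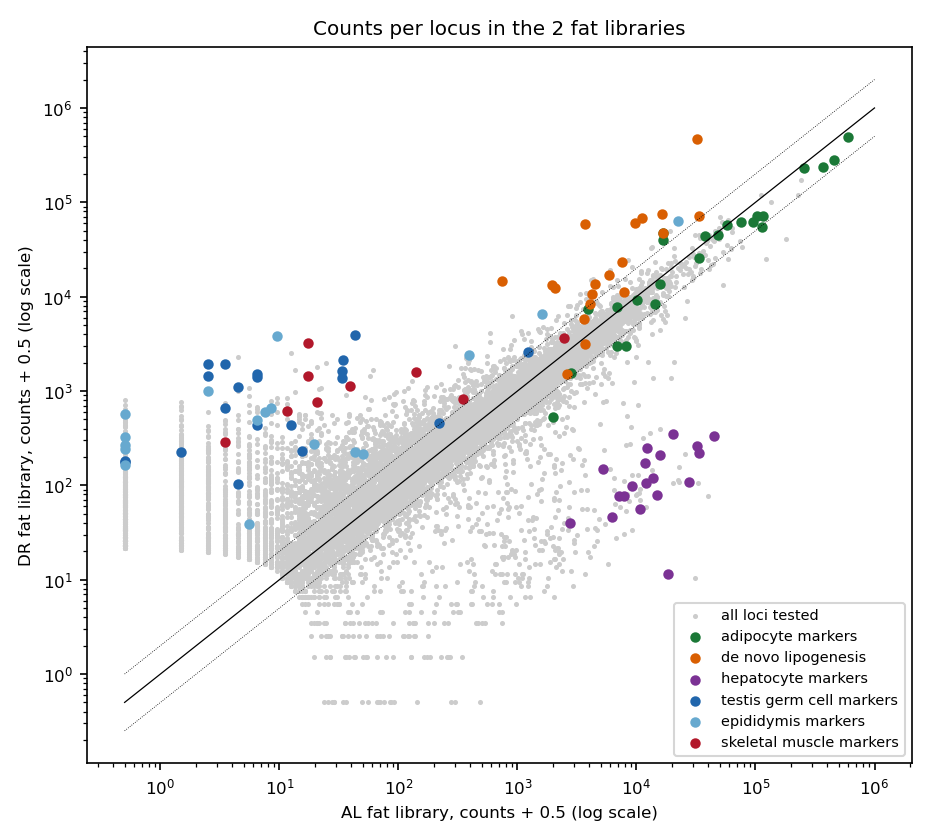
Counts plus 0.5 in the AL (x) and DR (y) fat libraries on log axes, 1 point for each of 16501 loci, with 6 gene lists in colour; the solid line marks equal counts and the dotted lines a 2-fold difference. Most adipocyte markers lie between the dotted lines, 17 of 19 lipogenesis genes lie above equal scaled counts, all hepatocyte markers lie below and all germ cell markers above.

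De novo lipogenesis had the largest median ratio of the lists that describe fat functions. Of 20 genes listed, 19 passed the filter and were used. Of these, 15 were higher in DR (16.1% of all genes) and 0 were lower (6.31% of all genes). The median log2 ratio was 1.59 against 0.01 over all genes. Scd1 was set aside for the reason given at the end. Fasn, Acly and Elovl6 had the highest ratios of all genes with at least 100 counts in both libraries outside the liver-high set. In AL, Fasn ranked 67 by counts among named loci other than Scd1, and in DR it ranked 2.

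Fasn (chr11:120805958-120825166 on GRCm38) had AL, DR and DR-AL counts of 31981, 473270 and 9187. The DR level was 14.7-fold that of AL, a log2 ratio of 3.87 with an interval of 3.86 to 3.89. It took 0.122% of the counts on named loci in AL against 2.07% in DR, with 0.0336% in DR-AL. Acly (chr11:100476352-100528000) encodes ATP citrate lyase, which makes cytosolic acetyl-CoA from citrate, and had AL, DR and DR-AL counts of 3700, 58487 and 5318. Its DR level was 15.7-fold that of AL (log2 3.97, interval 3.92 to 4.02). Elovl6 (chr3:129532386-129638495), the elongase that lengthens palmitate, had AL, DR and DR-AL counts of 746, 14737 and 797, a 19.6-fold difference (log2 4.29, interval 4.18 to 4.40). For each of these genes the DR library stood far above both libraries of mice that were feeding freely.

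The promoters of these 3 genes, which had the largest differences in the pathway, are shown as the 250 bases before the start site from RefSeq on GRCm38.p6, 5′ to 3′ on the strand of the gene. They lie at chr11:120824548-120824797 (minus strand) for Fasn, chr11:100528001-100528250 (minus strand) for Acly and chr3:129532136-129532385 (plus strand) for Elovl6. The Acly and Elovl6 windows abut the gene spans printed above. The Fasn window lies inside its printed span, so the start site used for Fasn is not the outer end of that span. Capitals mark CCAAT or its reverse complement ATTGG, the box bound by NF-Y.
Fasn: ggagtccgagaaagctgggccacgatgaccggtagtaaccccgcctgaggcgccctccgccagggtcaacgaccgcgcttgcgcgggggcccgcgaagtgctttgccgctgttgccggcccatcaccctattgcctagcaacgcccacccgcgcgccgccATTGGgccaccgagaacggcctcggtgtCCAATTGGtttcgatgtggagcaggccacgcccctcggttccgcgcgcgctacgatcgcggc
Acly: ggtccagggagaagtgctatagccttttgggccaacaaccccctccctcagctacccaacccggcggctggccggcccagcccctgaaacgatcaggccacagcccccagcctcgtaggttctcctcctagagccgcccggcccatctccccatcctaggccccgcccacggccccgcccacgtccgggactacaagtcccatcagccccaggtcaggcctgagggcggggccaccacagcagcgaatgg
Elovl6: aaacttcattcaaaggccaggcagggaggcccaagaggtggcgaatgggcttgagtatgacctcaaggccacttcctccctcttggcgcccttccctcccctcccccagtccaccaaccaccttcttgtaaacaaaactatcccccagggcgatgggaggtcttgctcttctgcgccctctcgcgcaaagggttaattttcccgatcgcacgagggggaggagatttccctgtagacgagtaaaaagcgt
The Fasn window held 3 matches, of which the last pair overlap, and the Acly and Elovl6 windows held 0. Promoters were found for 18 of the 20 listed genes, as 24 windows. CCAAT on either strand was in 13 of these 24 windows (54.2%) and in 33.8% of all 32851 windows of 250 bases. The E-box CACGTG was in 4 (16.7%, and 6.02% of all), and TCACNCCAC, a sterol regulatory element, was in 1 (4.17%, and 1.05% of all). These matches describe the letters only.

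Most steps around Fasn were higher in DR as well. Acaca, acetyl-CoA carboxylase 1, which makes the malonyl-CoA that Fasn uses, had AL, DR and DR-AL counts of 11140, 68092 and 4333 (log2 2.60). Acacb, the form that acts at mitochondria, had 7880, 11314 and 8528 and was not called (log2 0.51). Acss2, which makes acetyl-CoA from acetate, had 1937 counts in AL and 13295 in DR (log2 2.77). The mitochondrial citrate carrier Slc25a1 had 7490 and 23389 (log2 1.63). Pyruvate carboxylase, Pcx, which refills the citrate pool, had 33784 and 71645 (log2 1.07). Among desaturases, the locus shared by Scd2 and a microRNA had AL, DR and DR-AL counts of 2060, 12410 and 9390 (log2 2.58). Elovl5, which elongates polyunsaturated fatty acids, had 3663 and 3162 (log2 -0.23), and Acsl5, an acyl-CoA synthetase, had 2628 and 1511 (log2 -0.81). Neither was called.

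Enzymes that supply NADPH for fatty acid synthesis were also higher. Malic enzyme, Me1, had AL, DR and DR-AL counts of 9804, 60001 and 7131 (log2 2.60). Of the pentose phosphate enzymes, Pgd had 4517 and 13761 counts (log2 1.59) and G6pdx had 4083 and 8392 (log2 1.03). The Tkt locus, which carries a microRNA name too, had 16242 and 75027 (log2 2.19). Of the regulators, Srebf1, a transcription factor of lipogenic genes, had 5873 and 16788 counts (2.83-fold), and Thrsp, a lipogenic regulator, had 16676 and 47428 (log2 1.49). Mlxipl, the carbohydrate response factor ChREBP, had 3591 and 5800 (log2 0.68), below the 2-fold call.

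Of the 19 lipogenesis genes, 17 had their highest CPM of the 3 fat libraries in DR, and 14 had a lower CPM in DR-AL than in AL. With the liver share taken off AL, the list median was 1.61. Skeletal muscle markers and smooth muscle markers were highest in DR, and their part in these values was not tested.

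Of 24 genes of glycolysis and pyruvate entry, a list added after values were seen, 6 were higher (16.1% of all genes), 0 were lower (6.31% of all genes) and the median was 0.75. Muscle uses several of these genes heavily, and skeletal muscle markers summed to 116 CPM in AL and 594 in DR, and smooth muscle markers to 1880 and 4760. The part of muscle RNA in this list was not tested. The muscle and fetal-type pyruvate kinase gene, Pkm, had 5771 counts in AL and 17810 in DR (log2 1.61). Aldolase A, Aldoa, had 19049 and 50250 (log2 1.39), and enolase 1, Eno1, had 6905 and 15056 (log2 1.11). Both subunits of the E1 enzyme of pyruvate dehydrogenase, which makes acetyl-CoA in the mitochondrion, were higher: Pdha1 had 9217 and 20719 counts (log2 1.16) and Pdhb had 3369 and 8798 (log2 1.37). Hk1 was also higher, with AL, DR and DR-AL counts of 876, 3061 and 11783 (log2 1.79). The Hk1 counts rose from AL to DR to DR-AL, while Fasn was highest in DR. The summed germ cell, epididymis and macrophage markers rose in the same order as Hk1, although 10 of 18 epididymis markers had a higher CPM in DR than in DR-AL. The source of the Hk1 difference was not tested. The insulin-responsive glucose transporter Slc2a4 had AL, DR and DR-AL counts of 3881, 7316 and 1408 (log2 0.90, interval 0.84 to 0.96), just under the 2-fold call.

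Of 20 genes of fatty acid uptake and triglyceride assembly, 3 were higher and 2 were lower, with a median of -0.13, so the share of higher genes was near the 16.1% of all genes. Agpat2, which adds the second acyl chain to glycerol phosphate, had 6017 counts in AL and 19104 in DR (log2 1.65). Dgat2, which adds the last acyl chain, had 13603 and 33678 (log2 1.29), while Dgat1, which does the same step, had 9443 and 8515 (log2 -0.16). Gpd1, which makes glycerol phosphate from a glycolytic intermediate, had AL, DR and DR-AL counts of 16550, 39619 and 7897 (2.37-fold). Pck1, which serves the route to glycerol phosphate that does not start from glucose, differed the other way. It had AL, DR and DR-AL counts of 123648, 25021 and 72679, 4.99-fold lower in DR (log2 -2.32, interval -2.34 to -2.30). A liver share could account for 10.9% of its AL counts, and without that share the ratio was -2.15.

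**Figure D3:**
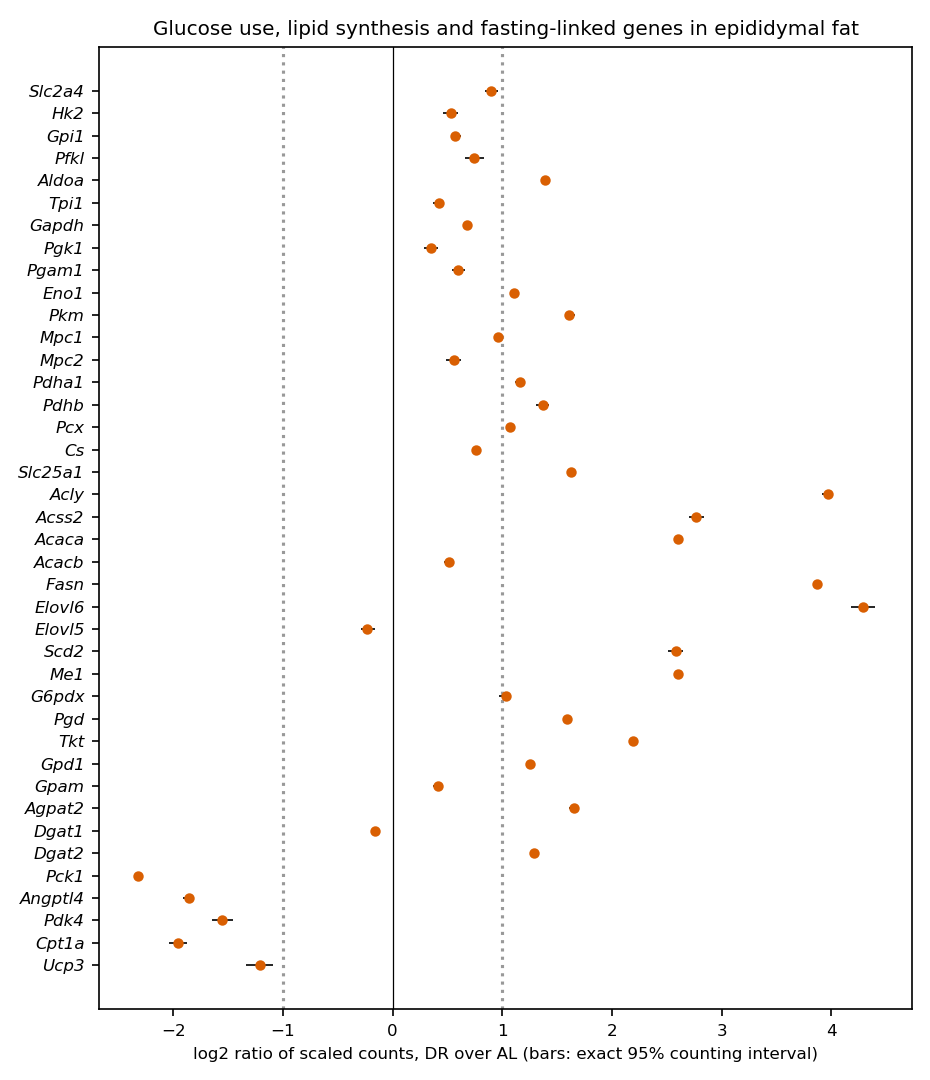
Log2 ratio of scaled counts, DR over AL, for 40 genes picked from several lists. They run from glucose uptake through lipogenesis and triglyceride assembly to genes linked to fasting. Bars are exact 95% counting intervals and dotted lines mark 2-fold. Elovl6, Acly and Fasn lie near 4 and Pck1 lies at -2.32.

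Angptl4, Pdk4, Ucp3 and Cpt1a were picked from different lists and were lower in the DR library. The list of 18 glucocorticoid and fasting response genes had 1 higher (16.1% of all genes) and 2 lower (6.31% of all genes). Its median was -0.18. Angptl4, an inhibitor of lipoprotein lipase, had AL, DR and DR-AL counts of 15885, 4425 and 15409 (log2 -1.86). Pdk4, the kinase that switches off pyruvate dehydrogenase, had 3476, 1192 and 9335 (log2 -1.56). The uncoupling protein gene Ucp3 had 1741, 758 and 1647 (log2 -1.21). For these genes AL lay well above DR and DR-AL lay near or above AL. Cpt1a, the liver-type enzyme that lets fatty acids into mitochondria, had 5900 and 1534 counts (log2 -1.96), and 38.4% of its AL counts could be liver RNA. Without that share its ratio was -1.26. Cpt1b, the muscle-type enzyme, shares its locus with other genes and had 1467 and 1473 counts. Across 20 fatty acid oxidation genes, 0 were higher (16.1% of all genes) and 2 were lower (6.31% of all genes). Their median was -0.39, which moved to -0.04 without the liver share.

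Genes that define the adipocyte differed less than those of lipogenesis. Of 24 adipocyte markers, 2 were higher (16.1% of all genes), 4 were lower (6.31% of all genes) and 18 were within 2-fold. Their median was -0.36, and the 2 higher markers were Thrsp and Gpd1, given above. Adiponectin, Adipoq, had AL, DR and DR-AL counts of 114888, 71234 and 62999 (log2 -0.70). Leptin, Lep, the hormone that reports fat stores, had 10006, 9256 and 6949 (log2 -0.13), and resistin, Retn, had 37323, 43474 and 19222 (log2 0.21). The lipid carrier Fabp4 had 460955 and 281101 counts (log2 -0.73), and perilipin 1, Plin1, had 48038 and 44583 (log2 -0.12). These 5 genes were all within 2-fold. The 4 markers that were lower were Plin4, Aqp7, Acvr1c and Ffar2. Aqp7, the glycerol channel, had AL, DR and DR-AL counts of 6822, 2990 and 7336 (log2 -1.20). Acvr1c, the receptor ALK7, had 8220, 2965 and 3549 (log2 -1.48). The short-chain fatty acid receptor Ffar2 had 2002, 532 and 883 (log2 -1.92).

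Among 21 lipid droplet and lipolysis genes, 1 was higher (16.1% of all genes) and 4 were lower (6.31% of all genes). The hormone-sensitive lipase gene Lipe had 57722 counts in AL and 57574 in DR (log2 -0.02), and the triglyceride lipase gene Pnpla2 had 76103 and 61681 (log2 -0.32). Among the brakes on lipolysis, G0s2, an inhibitor of that lipase, had 6538 and 3171 (log2 -1.06), and the niacin receptor Niacr1 had 1034 and 275 (log2 -1.92). Cidea, a lipid droplet protein, was the 1 higher gene, with AL, DR and DR-AL counts of 91, 264 and 126 (log2 1.52). The brown fat gene Ucp1 had 1 count in each of AL and DR, and no ratio is given.

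Of 13 adipokines that passed, 0 were higher (16.1% of all genes) and 3 were lower (6.31% of all genes), namely Angptl4, Apln and Fgf21. The list median was -0.70, or -0.18 without the liver share, and 1 listed gene was liver-high. Rbp4, the retinol carrier that the liver also makes in quantity, had 29920 counts in AL and 15684 in DR (log2 -0.95), and the ratio was 0.30 without the liver share, which was 57.7% of its AL counts. Vegfa, a vascular growth factor, had 13742 and 8437 (log2 -0.72).

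Of 16 genes listed as tied to fat cell enlargement, 2 were higher (16.1% of all genes), 5 were lower (6.31% of all genes) and 9 were within 2-fold. The median was -0.64, or -0.39 without the liver share. Mest (chr6:30733506-30748466) had AL, DR and DR-AL counts of 9550, 1233 and 6629, 7.81-fold lower in DR (log2 -2.97, interval -3.05 to -2.88). Sfrp5, a secreted Wnt inhibitor, had 1272, 277 and 1648 (log2 -2.21), and neuronatin, Nnat (chr2:157560078-157562525), had 53042, 13343 and 17047 (4.01-fold lower). Peg3 (chr7:6703892-6730462), a zinc finger gene, had AL, DR and DR-AL counts of 10203, 707 and 11122, 14.6-fold lower in DR (log2 -3.86, interval -3.98 to -3.75). Liver RNA could account for at most 0.309% of the AL counts of Mest, Nnat or Peg3. Ptrf, a caveola coat gene, was also lower, at 43958 and 22118 (2.01-fold lower). Npr3, Cav1, Cav2 and Sncg had ratios between -0.81 and -0.22, within 2-fold. Ptger3, a prostaglandin receptor, was higher, with 1765 and 4004 counts (log2 1.17), and Dlk1 had 6 and 26. Dlk1 passed the filter only through its DR counts, which fixed the direction of its call.

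Mest, Nnat and Peg3 are imprinted genes, expressed from the paternal copy, and Zim1 lies beside Peg3 at chr7:6674444-6696540. Zim1 had AL, DR and DR-AL counts of 767, 25 and 1120, 30.4-fold lower in DR (log2 -4.92, interval -5.59 to -4.38). A list of 24 imprinted genes, added after these values were seen, had 21 that passed, with a median of -0.12. Of these, 5 were lower (6.31% of all genes) and 2 were higher (16.1% of all genes). Most were within 2-fold: Igf2 had 329 and 345 counts, Cdkn1c 735 and 776, Ndn 403 and 457, and Gnas 20960 and 23879. In the other tissues Peg3, Mest and Nnat stayed within 2-fold where they were well counted, with Peg3 at 30020 and 32325 counts in the hypothalamus and 9304 and 7891 in the hippocampus. Outside the wider liver set, the genes with the lowest ratios also included Thbs1, thrombospondin 1, with AL, DR and DR-AL counts of 7719, 740 and 6500 (log2 -3.40). They included Emp1, an epithelial membrane protein gene, with 12408, 2023 and 11445 (log2 -2.63), and Pmepa1, a gene induced by TGF-beta, with 9948, 2291 and 11884 (log2 -2.13). Peg3, Zim1, Thbs1, Emp1 and Pmepa1 each had their lowest count in DR and higher counts in both AL and DR-AL. Other genes among the lowest outside the wider liver set had this order too, such as Mir34a with 1271, 161 and 1611 counts. That set takes out genes far lower in DR-AL fat than in liver, so the order is not particular to the named genes. The gene names Zim1, Emp1 and Pmepa1 were chosen after their values were seen.

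Regulators of fat cells differed little apart from a few. The list counts here stand against 16.1% of all genes higher and 6.31% lower. Of 20 adipogenic and lipid transcription factors, 1 was higher, 3 were lower and the median was -0.14. Pparg, the main adipogenic factor, had 6862 counts in AL and 7804 in DR (log2 0.17), and Cebpa had 15894 and 13635 (log2 -0.23). Srebf1 was the higher gene. The lower genes were Cebpb, Cebpd and Ppara, of which Cebpd had 1582 and 638 counts (log2 -1.32) and Ppara had 2363 and 507 (log2 -2.23, or -1.29 without the liver share). In insulin signalling, 4 of 16 genes were lower and 0 were higher. Irs2, an insulin receptor substrate that fasting is known to induce, had 3682, 1432 and 3277 counts in AL, DR and DR-AL (log2 -1.38), while Irs1 had 2387 and 1675 (log2 -0.52) and Insr had 5900 and 3426 (log2 -0.80).

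Of 20 genes of cholesterol synthesis and uptake that passed, 7 were higher (16.1% of all genes), 3 were lower (6.31% of all genes) and the median was 0.61. Insig1, which holds back SREBP processing, had 3161 counts in AL and 8189 in DR (log2 1.36). Fdps, an isoprenoid synthase gene, had 621 and 1785 (log2 1.51), and Nsdhl, a sterol enzyme gene, had 713 and 2098 (log2 1.54). The locus of Hmgcs1 was listed at 0 in every library. This list median was 0.00 with FPKM values, where the median of all genes was -0.48, and 0.83 with totals, where it was 0.22.

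Clock, stress and thermogenic genes showed few calls, beside 16.1% of all genes higher and 6.31% lower. Of 19 clock genes, 2 were higher, 1 was lower and the median was 0.16: the clock repressor Bhlhe41 had 613 and 1460 counts (log2 1.24) and Gm129 had 284 and 807 (log2 1.49), while Nr1d1 had 5831 and 7082 (log2 0.27). Of 18 glucocorticoid and fasting response genes, 1 was higher and 2 were lower. Fkbp5, a glucocorticoid target, had 3121 and 5038 (log2 0.68), and Lcn2, at a shared locus, had 939 and 3487 (log2 1.88). Among 19 immediate early genes, 2 were higher and 2 lower, with a median of -0.53. Of 16 thermogenesis genes, 2 were higher and 3 were lower, and 20 genes of mitochondrial and branched chain catabolism gave 0 calls either way. The 10 senescence and growth factor genes that passed gave 1 lower gene, Igf1, which had 9311 and 4479 counts (log2 -1.07), or -0.58 without the liver share.

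The other cells of the depot were present in both libraries. Their marker counts stand against 16.1% of all genes higher and 6.31% lower. Of 20 macrophage markers, 1 was higher, 2 were lower and the median was 0.22. The macrophage gene Csf1r had 1732 and 2171 counts (log2 0.31) and Lyz2 had 4121 and 5363 (log2 0.37). Inflammatory mediators were thinly counted, with Tnf at 19 and 14 counts and Il6 at 1 in each, and 3 of 14 were lower. Of 16 lymphocyte markers, 2 were higher and 5 were lower, and the plasma cell gene Igj had 993 and 293 counts (log2 -1.77). All 13 endothelial markers that passed had ratios below 0, from -1.14 to -0.02, and 1, Cldn5, was called lower. Fibroblast and matrix genes had a median of -0.23 over 22 genes, with 3 lower, among them the collagen cross-linking enzyme gene Lox at 2145 and 759 counts (log2 -1.51). The 11 mesothelial markers had a median of 0.45 with 1 higher. Of 4 erythroid markers, 3 were lower.

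The fast myosin gene Myh4 had AL, DR and DR-AL counts of 17, 3216 and 2 (log2 7.51, interval 6.87 to 8.33), and the creatine kinase gene Ckm had 139, 1595 and 70 (11.3-fold). Of 9 skeletal muscle markers 8 were higher (16.1% of all genes) and 0 were lower (6.31% of all genes), with a median of 5.22. Their lowest AL count was 3, and members near 0 in AL passed the filter only through their DR counts. For such members the filter itself fixed the direction of the call. Of 10 smooth muscle markers 7 were higher (16.1% of all genes) and 0 were lower (6.31% of all genes), with a median of 1.27. Myh11 had 13218, 32723 and 8553 counts (log2 1.29) and Acta2 had 8554, 24448 and 13228 (2.83-fold). Skeletal muscle markers were also higher in the DR liver library, in 6 of 8 with 1 lower and a median of 2.33, where 4.47% of all liver genes were higher and 3.51% lower.

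**Figure D4:**
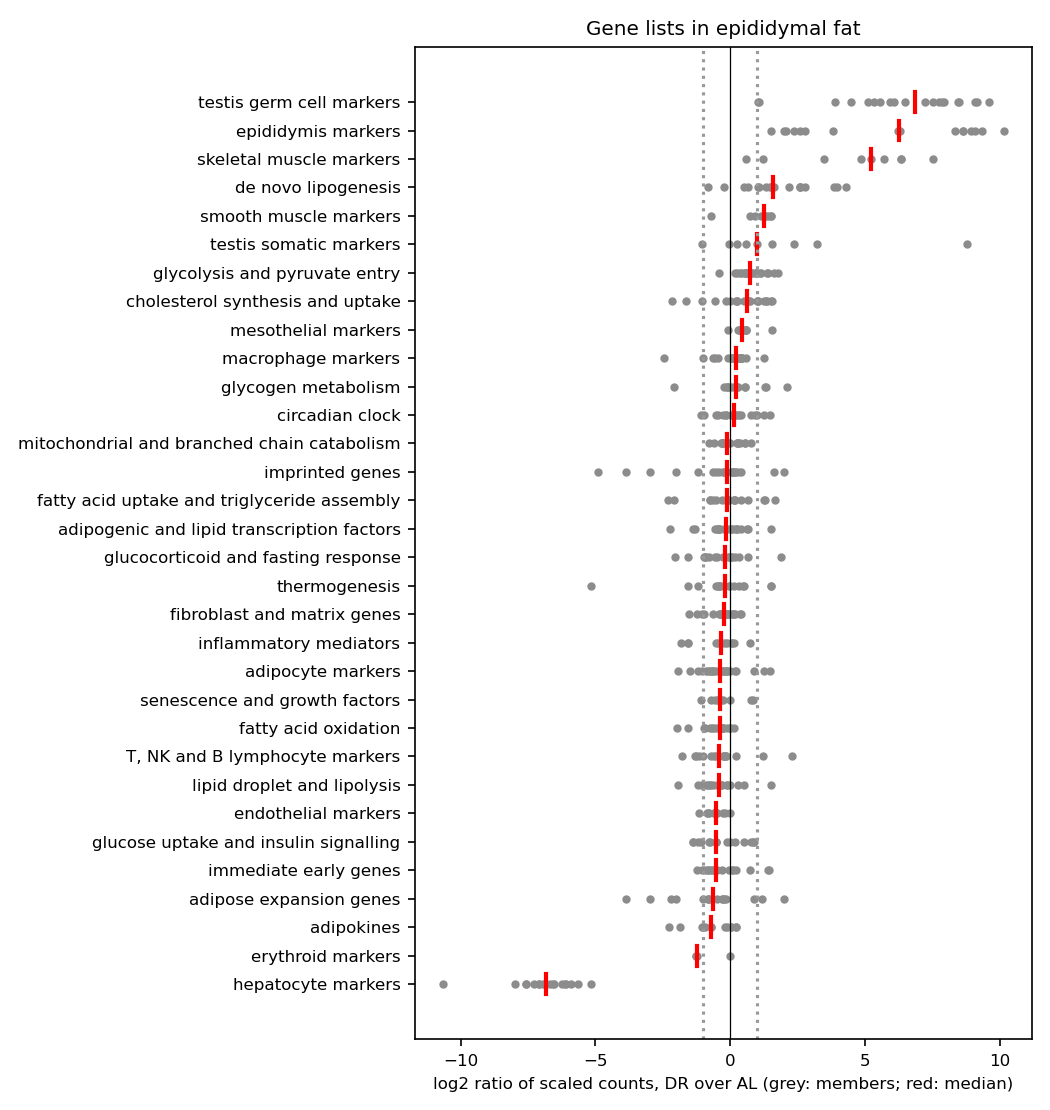
Log2 ratio of scaled counts, DR over AL, of the members of 32 gene lists in epididymal fat; each grey point is 1 gene that passed the filter, red bars are list medians and dotted lines mark 2-fold. The germ cell, epididymis and skeletal muscle lists have medians above 5, lipogenesis 1.59, adipocyte markers -0.36 and hepatocyte markers -6.84.

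The counts of testis and epididymis markers stand against 16.1% of all genes higher and 6.31% lower. All 20 testis germ cell markers were higher in DR. Their median log2 ratio was 6.85, or 6.00 with genes at 0 in AL set to the bound that 3 counts allow. The sperm lactate dehydrogenase gene Ldhc had AL, DR and DR-AL counts of 2, 1944 and 13609, and the protamine gene Prm1 had 2, 1437 and 10028. All 20 had a higher CPM in DR-AL than in DR. Of 18 epididymis markers, 17 passed and all 17 were higher, with a median of 6.27, and 6 of the 18 were at 0 in AL. In both lists, members at or near 0 in AL passed the filter only through their DR counts. For such members the filter itself fixed the direction of the call. Among epididymis markers the order of DR and DR-AL depended on the gene, since 10 of 18 were higher in DR. Gpx5, an epididymal glutathione peroxidase gene, had AL, DR and DR-AL counts of 9, 3828 and 139, and the lipocalin gene Lcn9 had 0, 576 and 0, at least 190.0-fold higher in DR. Crisp1, a secreted sperm-coating protein gene, had 22172, 63971 and 125400 counts, so some epididymis RNA was in the AL library too. Testis somatic markers had a median of 1.00, with 5 of 9 higher. Further genes among those with the highest ratios were Spata21, Tuba3b and Spata4, each at 0 in AL and at 799, 706 and 618 in DR. Gm4846 had AL, DR and DR-AL counts of 0, 651 and 13.

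Beside Elovl6, Acly, Fasn and Ckm, the 10 highest ratios among genes with at least 100 counts in both libraries outside the liver-high set included those of Dcdc2a, Acsbg1, Mmp7, Calml3 and Defb22. Dcdc2a, Acsbg1, Mmp7, Calml3 and the defensin gene Defb22 had log2 ratios of 3.27, 3.16, 3.14, 2.85 and 2.77. These 5 genes had their highest counts in DR-AL, with Defb22 at 591, 4080 and 11238. The summed germ cell markers and the summed epididymis markers both had this order, but 10 of 18 epididymis markers were higher in DR than in DR-AL. The source was not tested.

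The hepatocyte list had the lowest median of all lists. All 19 hepatocyte markers that passed were lower in DR (6.31% of all genes), with a median of -6.84 and a range of -10.65 to -5.16. The fetuin gene Ahsg had AL, DR and DR-AL counts of 33766, 222 and 41, and the urea cycle gene Cps1 had 27547, 108 and 23. Mug1 and Mat1a, among the 5 liver-high genes with the most AL counts, had 40053 and 77, and 32997 and 105. C3, complement component 3, which fat makes as well, passed the liver-high rule but had AL, DR and DR-AL counts of 57276, 35107 and 13595 (log2 -0.72). Genes used by both liver and colon lay outside the liver-high rule, such as Pigr with 8728, 68 and 48 counts in the same order. Sema4g, Akr1c14, Mettl7b and Slc25a13 were of the same kind, with log2 ratios of -3.94, -3.81, -3.72 and -3.63 and AL liver counts of 7163 to 27251. Fabp2 had 270 counts in AL and 1 in DR, and Ugt2b34 had 2083 and 16. A liver share could account for 32.3% of the AL counts of Sema4g, 39.6% for Mug1, 64.5% for Pigr and 98.9% for Ugt2b34. The source of the rest was not tested.

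The lipogenesis genes were set beside the same genes in the other tissues of these pools. In the liver, 8 of 19 were higher (4.47% of all genes there) and the median was 0.85. In the colon 1 of 19 was higher (2.04% of all, with 4.02% lower), 1 was lower and the median was 0.12. In the hypothalamus and hippocampus 0 were higher (1.47% and 0.36% of all) and 0 were lower (0.885% and 0.694% of all), with medians of 0.01 and 0.04. Fasn had 1954 and 12278 counts in AL and DR liver (log2 2.73), 2674 and 4305 in colon (log2 0.36), 15051 and 16374 in hypothalamus (log2 -0.03) and 10788 and 9146 in hippocampus (log2 0.14). Acly had log2 ratios of 3.97 in fat, 1.26 in liver and 0.64 in colon, and Elovl6 of 4.29, 0.97 and -0.21. For these genes the ratio was larger in fat than in any other tissue, with counting intervals that did not overlap. For Thrsp, Srebf1, Aacs and Mlxipl it was larger in the liver, at 3.11, 1.94, 1.70 and 1.35. It was also larger in the liver for Acacb (0.85) and Acsl5 (0.35) and in the colon for Elovl5 (0.26), all within 2-fold. With 1 library for each tissue and diet, the difference between tissues has no replicate check.

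**Figure D5:**
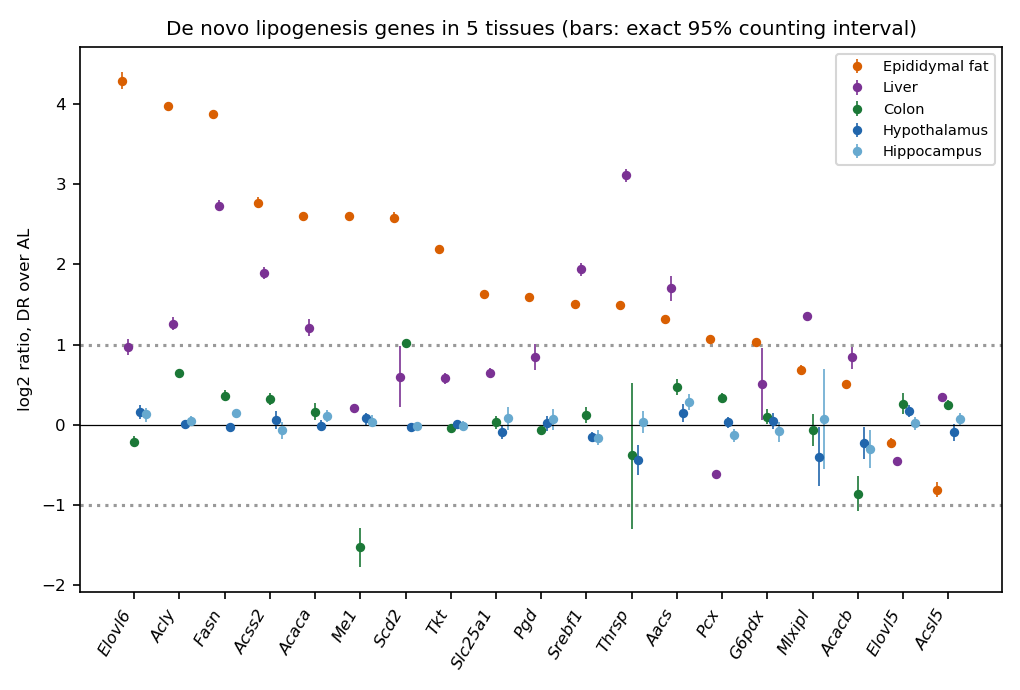
Log2 ratio of scaled counts, DR over AL, of 19 lipogenesis genes in 5 tissues, each scaled within its own pair of libraries; bars are exact 95% counting intervals and dotted lines mark 2-fold. Fat points reach 4.29, liver points 3.11, and the points of both brain regions lie near 0.

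Scd1, stearoyl-CoA desaturase 1, was listed at 756056 counts in AL fat, 0 in DR fat and 392180 in DR-AL fat. It was also listed at 0 counts and 0 FPKM in the DR libraries of the liver, colon, hypothalamus and hippocampus, where the AL libraries had 106055, 1252, 12276 and 8533 counts. It was the 1 named locus with at least 500 counts in AL fat and 0 in DR fat. Because Scd1 was listed at 0 in the DR library of all 5 tissues, no ratio is given for it and it enters no list median. Whether these zeros are missing values or measured levels was not tested.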

How the data were processed

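RNA was pooled from 5 mice for each library, depleted of ribosomal RNA and sequenced as stranded libraries. The authors state that reads were trimmed, mapped to mm10 and cleared of duplicates. The processing notes name mm9 and DESeq2. The authors deposited whole-number counts per locus without normalization and FPKM values scaled by length and depth. Of 21161 symbols matched to RefSeq GRCm38, 13.6% overlapped the position in the table, so printed coordinates are those of RefSeq.

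Counts of named loci were divided by median-of-ratios size factors of the AL and DR fat libraries (0.995 and 1.00), and loci with a mean of at least 10 scaled counts were compared without a test. No per-sample column was left without a sample. Scripts used Python 3.11.15, numpy 2.4.6, scipy 1.17.1 and pandas 2.3.3, with TMM factors from edgeR 4.0.16, and were tested on simulated data. Depths are given above. Gene lists held 517 genes, of which 495 passed the filter and 15 lay at loci with several names. Members and lists were chosen with earlier results of these data known. Named genes are list members, the 10 highest and 10 lowest ratios outside the liver-high set with at least 100 counts in both libraries, the 5 each way with under 100 in 1 library, and the 5 liver-high genes with the most AL counts. A few of these are not reported here. Alternatives were totals, TMM, size factors from genes used in other tissues, FPKM, a pseudocount of 5, removal of a liver share from AL, other filters, other liver-high limits, and the Z test of the methods.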

Additional observations from a re-analysis of the deposited data

Results flagged for a closer look

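Me1 was higher in DR fat (9804 counts in AL, 60001 in DR, log2 2.60) and lower in DR colon (453 and 196, log2 -1.53). The values go in opposite directions past 2-fold, and the difference between tissues was not tested. Gpd1 was higher in DR fat (16550 and 39619, 2.37-fold) and lower in DR liver (14571 and 5739, log2 -1.27), which was likewise not tested.

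Among 10014 loci with no gene name, which the comparison did not use, 21 had at most 3 counts in AL fat and at least 100 in DR fat, with a highest DR count of 728. Of these, 20 had a higher CPM in DR-AL than in DR, the order that the summed germ cell and epididymis markers both had. Among single epididymis markers, 10 of 18 had the opposite order. Another 8 unnamed loci had at most 3 counts in DR and at least 100 in AL.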

How the results depend on the processing

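The number of higher genes was 2658 and of lower genes 1042. With FPKM they were 1718 and 2191, without a filter 4429 and 1604, with a mean of at least 100 counts 978 and 694, and with the Z test of the methods at an adjusted p of 0.05 they were 7189 and 2116, where the Z test compares these libraries and not the diets. With the liver share removed, lower genes were 639. Outside the liver-high set (2651 and 690), these alternatives gave 1712 and 1827 with FPKM, 4419 and 1251 without a filter, 971 and 393 at 100 counts, and 7177 and 1751 with the Z test. The liver share left 453 lower genes there. Leaving out genes under 1 CPM in the 12 other libraries, an alternative chosen after seeing the data, left 1674 higher genes. The adipocyte median of -0.36 was -0.15 with totals, -0.32 with size factors from genes used elsewhere and -0.90 with FPKM. The lipogenesis median of 1.59 was 1.81 with totals and 1.01 with FPKM, which put the median of all genes at 0.22 and -0.48. The macrophage median of 0.22, the clock median of 0.16, the glycogen median of 0.21 and the mesothelial median of 0.45 were -0.30, -0.33, -0.39 and -0.11 with FPKM. The triglyceride assembly median of -0.13, the transcription factor median of -0.14 and the imprinted median of -0.12 were 0.09, 0.07 and 0.10 with totals. Gapdhs, at a locus with a second gene, was at -0.15 with FPKM against 1.08, and Tmem56 was at 0.89 without the liver share against -2.13. The liver share takes all AL counts of 556 genes, and it varied from 7.98% to 29.8% between marker genes, so ratios after its removal are rough. No paired analysis was possible because each diet had 1 library. Leaving out a replicate was likewise not possible. Counts below about 10 limit the comparison of low genes, and intervals cover counting error only.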

Other observations

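Glycogen genes, a list chosen after values were seen, had 3 of 14 genes higher in DR fat and 1 lower. Over all genes 16.1% were higher and 6.31% were lower, so these counts were near the shares of all genes. The list median was 0.21. The branching enzyme gene Gbe1 had AL, DR and DR-AL counts of 1787, 4576 and 1271 (log2 1.34). Ppp1r3c, which directs a phosphatase to glycogen, had 808, 1985 and 584 (log2 1.28). The muscle glycogen phosphorylase gene Pygm had 200, 877 and 210 (log2 2.12), and skeletal muscle markers were higher in the same library. Gys2, the liver form of glycogen synthase, had 1812, 435 and 162 (log2 -2.07, or -0.75 without the liver share), and Gys1, the form used outside the liver, had 4232, 5128 and 2890 (log2 0.26).

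The locus of the complement genes C4a and C4b had 25607, 5873 and 17539 counts in the same order (log2 -2.14). The arrestin-family gene Arrdc3 had 5061, 1194 and 6077 (log2 -2.10). Arrdc3 and this locus were chosen after their values were seen.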
